A study of Homo sapiens with 346 samples.

Results

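The 9 tubulin genes described here are the alpha-tubulin genes TUBA1A, TUBA1B and TUBA1C, the beta-tubulin genes TUBB, TUBB2A, TUBB3, TUBB4B and TUBB6, and the gamma-tubulin gene TUBG1. They were chosen by name, with their measured levels and their relation to cell cycle genes in these same cells in view, so their levels, ratios and correlations below are a description of selected genes. They are 9 of 28806 genes listed for HCT-116 and 9 of 29551 listed for HepG2. Full-length single-cell RNA-seq (Smart-seq2) was run on cells that were either live at capture or had been fixed in 80% methanol and kept at -80 °C for 1 week. Both lines were grown in DMEM with serum and antibiotics: HCT-116, a human colorectal carcinoma line, and cells labelled HepG2, a human line of liver origin. The tables hold 91 live and 92 fixed HCT-116 cells and 68 live and 83 fixed HepG2-labelled cells, 334 columns for 346 labelled cells, and the other 12 were not analysed here. The HCT-116 groups come from 1 experiment and the HepG2 groups pool 2, but neither the labels nor the column names say which HepG2 cell belongs to which. Each line and treatment was therefore handled as 1 sample, cells are not replicates of it, and no test between groups was made. Errors are SDs over cells.

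Median depth per cell was between 1.8 and 2.5 M reads in all 4 groups, and the shallowest cell had 0.2 M. Fixed cells had fewer genes detected, with medians of 10359 against 12031 in HCT-116 and 12293 against 13887 in HepG2-labelled cells. Ribosomal RNA took a mean of 25.7% of TPM in live HCT-116 cells and 7.86% after fixation, and 6.28% and 2.44% in HepG2-labelled cells. TPM (a per-length share of a cell's RNA) of every other gene moves with that share, so ratios are also given after leaving ribosomal RNA out. Of 9 hepatocyte markers, 5 were listed in the HepG2 table, and only SERPINA1 had a mean above 1 TPM there, at 2.27 in live and 3.95 in fixed cells. The cells are therefore called HepG2-labelled. Of 8 intestinal markers, 5 were listed for HCT-116, and CDX2, KRT20, EPCAM and KRT18 had a mean above 1 TPM. In HepG2-labelled cells EPCAM and KRT18 did. In the HepG2 table, 1 fixed and 1 live column were identical, and 6 fixed columns were very similar to another one.

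Tubulins are the building blocks of microtubules, the hollow polymers that carry intracellular transport and form the mitotic spindle. Alpha-tubulin and beta-tubulin join as a heterodimer that adds to the growing end of the polymer, while gamma-tubulin sits in a ring-shaped complex that starts new microtubules at the centrosome. Cells make several alpha and beta isotypes from separate genes, and free tubulin dimers lower the stability of tubulin mRNAs during translation through a factor that reads the start of the nascent tubulin chain.

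The start and the end of the coding sequence show how the beta-tubulin members are related and where they part. The first 48 coding bases were 5 different sequences in the 5 beta-tubulin genes, with 3 different versions of the first 12 bases. The first 4 codons, which encode the residues read in the feedback on tubulin mRNA, are in capitals. The sequences were read 5′ to 3′ from the GENCODE v44 transcripts.
TUBB: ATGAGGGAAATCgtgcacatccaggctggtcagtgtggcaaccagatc
TUBB2A: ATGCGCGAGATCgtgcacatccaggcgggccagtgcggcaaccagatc
TUBB3: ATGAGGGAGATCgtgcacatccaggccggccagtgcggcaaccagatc
TUBB4B: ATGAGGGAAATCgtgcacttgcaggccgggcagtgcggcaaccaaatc
TUBB6: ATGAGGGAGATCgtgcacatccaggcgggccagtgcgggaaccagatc

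The beta-tubulin isotypes differ most in the acidic tail at the end of the protein, where many microtubule-binding proteins and modifying enzymes act. The last 48 coding bases, stop codon included, are shown for the 5 genes, with capitals at each base that did not align to an identical base of TUBB. Of the 48 bases, 12 differed in TUBB4B, 15 in TUBB2A, 20 in TUBB6 and 30 in TUBB3.
TUBB: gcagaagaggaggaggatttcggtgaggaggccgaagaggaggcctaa
TUBB4B: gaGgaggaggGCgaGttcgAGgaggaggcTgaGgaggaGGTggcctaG
TUBB2A: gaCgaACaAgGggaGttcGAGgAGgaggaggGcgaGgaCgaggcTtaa
TUBB6: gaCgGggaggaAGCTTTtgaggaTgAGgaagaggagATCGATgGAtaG
TUBB3: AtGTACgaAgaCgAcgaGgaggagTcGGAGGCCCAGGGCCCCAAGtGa

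The 3 alpha-tubulin genes lie together on chromosome 12 of GRCh38, TUBA1B at chr12:49127782-49131395 and TUBA1A at chr12:49184795-49189080 on the minus strand, and TUBA1C at chr12:49265082-49274600 on the plus strand. Their coding sequences were 95.9% to 97.2% identical. TUBB lies at chr6:30720352-30725422 and TUBB2A at chr6:3153666-3157544, while TUBB3 is at chr16:89923342-89936097, TUBB4B at chr9:137241287-137243707 and TUBB6 at chr18:12308241-12326616. TUBG1 is at chr17:42609683-42615238 and has 11 exons in its main transcript, against 4 in each of the other members.

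Near-identical copies limit how well the reads of some members can be told apart. Of the 31-base words of the main transcript, the word length of the authors' pseudoaligner, 27.8% were found in no other gene's GENCODE transcripts for TUBA1B, 30.96% for TUBB2A and 40.7% for TUBA1A. TUBA1B shared 50.03% of its words with TUBA1A, TUBB2A shared 62.9% with TUBB2B, and TUBG1 shared 36.6% with TUBG2. TUBA1A, TUBA1B and TUBB2A are uncertain in that sense. TUBA1C had 62.3% of its words to itself over the transcript but 27.5% in the coding part, so its coding reads are uncertain too. TUBB3, TUBB4B and TUBB6 had 79%, 79.3% and 93.2% of their words to themselves.

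TUBA1B, the main alpha-tubulin of dividing cells, had the highest mean of the 9 genes in all 4 groups. In live HCT-116 cells its lowest, median and highest TPM were 31.9, 1128 and 2062, and in fixed cells 67.7, 1328 and 2893. In HepG2-labelled cells the same 3 values were 42.6, 1839 and 3626 live and 71.9, 2488 and 5304 fixed. Live and fixed cells overlapped over nearly the whole range in both lines.

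TUBA1C, another broadly expressed alpha-tubulin, came next among the alpha genes. Its median was 376 TPM in both live and fixed HCT-116 cells, within ranges of 2.87 to 1408 and 24.5 to 1430. In HepG2-labelled cells it ran from 41.3 through a median of 366 to 1916 live and from 56.6 through 719 to 2077 fixed. TUBA1A, best known from neurons, was far lower in HCT-116, with a median of 30.3 (range 0 to 228) live and 32.5 (0 to 142.6) fixed. In HepG2-labelled cells its median was 92.8 (0 to 485) live and 70.3 (0 to 2124) fixed. The fixed value of 2124 came from 1 cell, the next highest being 570, and the fixed mean of 134.97 was 110.7 without it.

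TUBB, the main beta-tubulin of most cell types, led the beta genes in 3 of the 4 groups. Its lowest, median and highest TPM were 49.5, 590 and 1112 in live and 49, 679 and 1490 in fixed HCT-116 cells. In HepG2-labelled cells they were 22.5, 627 and 1540 live and 46.3, 853 and 2278 fixed. TUBB4B, a beta isotype also known from cilia, had the highest mean of the beta genes in live HepG2-labelled cells, but it exceeded TUBB in 32 of the 68 cells and its median was below that of TUBB, so these neighbours did not separate.

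TUBB4B ran from 19.2 through a median of 419 to 1657 TPM in live HCT-116 cells and from 3.47 through 198 to 973 in fixed ones. In HepG2-labelled cells it ran from 23.3 through 591 to 2043 live and from 0 through 459 to 1599 fixed. The live and fixed ranges overlapped, but 77 of 92 fixed HCT-116 cells (83.7%) and 64 of 83 fixed HepG2-labelled cells (77.1%) lay below the median of the live cells of their line.

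TUBB3, the beta isotype used as a neuronal marker, was above 0 in every HCT-116 cell. Its median was 105.4 TPM (15.7 to 308) in live and 66.4 (4.77 to 281) in fixed HCT-116 cells, and 73 of 92 fixed cells (79.3%) were below the live median. In HepG2-labelled cells the median was 19.9 (0 to 352) live and 21.7 (0 to 662) fixed, the second highest fixed cell being at 205. Of 6 neuron markers, none had a mean above 1 TPM in HCT-116, where the 5 listed summed to 1.25 TPM live and 0.936 fixed. MAP2 alone passed it in HepG2-labelled cells, at 1.12 and 1.83.

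TUBB6 and TUBB2A were the low beta genes in HCT-116, and in HepG2-labelled cells TUBB3 was as low as TUBB6, exceeding it in 36 of 68 live and 41 of 83 fixed cells. TUBB6, a broadly expressed and divergent beta isotype, had medians of 54.5 TPM live and 46.9 fixed in HCT-116 (ranges 4.56 to 158.4 and 0 to 165.4) and of 23.1 and 20.2 in HepG2-labelled cells (0 to 112.7 and 0 to 145.3). TUBB2A, a major beta isotype of brain, had medians of 24.6 live and 25.99 fixed in HCT-116 and 11.99 and 13.7 in HepG2-labelled cells. TUBB2A was listed at 0 in 4 of 91 live and 17 of 92 fixed HCT-116 cells and in 16 of 68 live and 13 of 83 fixed HepG2-labelled cells.

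TUBG1, which encodes the main gamma-tubulin, ran from 3.87 through a median of 114.6 to 212 TPM in live and from 8.19 through 137.1 to 333 in fixed HCT-116 cells. In HepG2-labelled cells it ran from 0 through 80.1 to 197 live and from 0 through 88.6 to 287 fixed. The gamma gene thus sat well below TUBA1B and TUBB and above TUBB2A and TUBB6 in every group.

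By mean TPM, the order in live HCT-116 cells was TUBA1B, TUBB, TUBB4B, TUBA1C, TUBB3, TUBG1, TUBB6, TUBA1A and TUBB2A. TUBA1B exceeded TUBB in 74 of 91 of these cells, while TUBB4B exceeded TUBA1C in 53 and TUBB3 exceeded TUBG1 in 49, so the latter neighbours did not separate beyond the spread over cells. TUBA1A and TUBB2A were close as well, with TUBA1A above in 51 of the 91 cells.

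**Figure D1:**
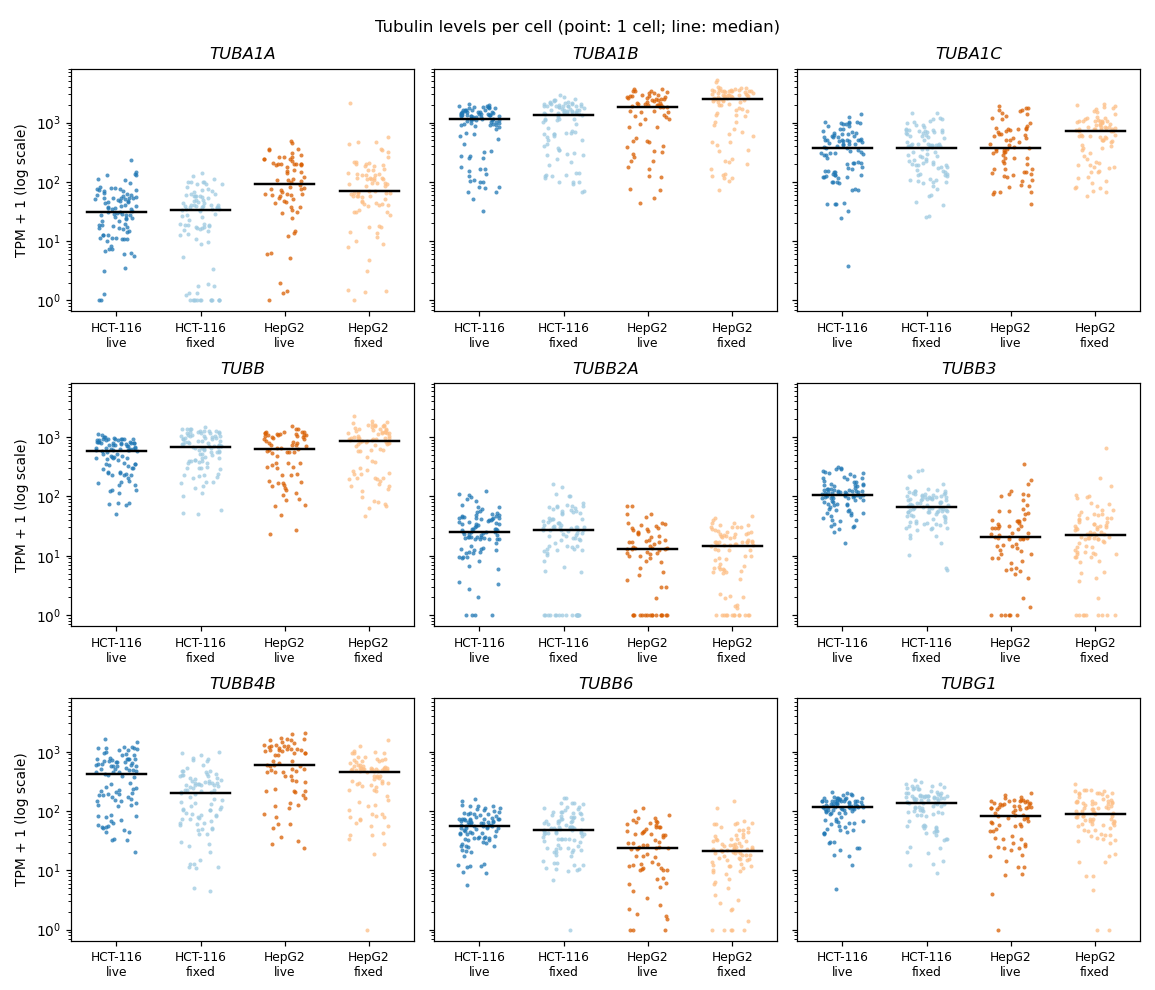
TPM of the 9 tubulin genes per cell as TPM + 1 on a log axis, with 1 point per cell and a line at the median, in live and fixed HCT-116 and HepG2-labelled cells. TUBA1B is the highest gene in each group, with means of 1011, 1180, 1653 and 2135 TPM, and every gene's live and fixed cells overlap.

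Live cells were processed at once, and fixed cells were rehydrated, sorted and made into libraries after storage. Treatment thus cannot be told apart from the time of sorting and library preparation. Fixed cells were compared with live cells of the same line by the ratio of mean TPM, fixed over live, and a gene was called past 1.5-fold in either direction. TUBB4B fell past it in both lines, from 464 ± 382 (n = 91 cells) to 239 ± 224 (n = 92) in HCT-116, a log2 ratio of -0.95, and from 718 ± 549 (n = 68) to 427 ± 313 (n = 83) in HepG2-labelled cells, a log2 ratio of -0.75. TUBB3 fell past it in HCT-116, from 118.7 ± 68.6 to 75.8 ± 49.4, a log2 ratio of -0.65, and its log2 ratio was 0.02 in HepG2-labelled cells. Whether the TUBB3 ratios of the lines differ was not tested.

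The other members stayed within 1.5-fold in both lines. In HCT-116 the means went from 1011 ± 597 to 1180 ± 778 for TUBA1B (log2 ratio 0.22), from 415 ± 317 to 426 ± 329 for TUBA1C and from 548 ± 294 to 691 ± 388 for TUBB (0.33). TUBG1 went from 105.96 ± 49.6 to 133.9 ± 78.2 in HCT-116 and from 83.03 ± 53.1 to 99.4 ± 65.7 in HepG2-labelled cells. In HepG2-labelled cells TUBA1B went from 1653 ± 1106 to 2135 ± 1319, TUBA1C from 552 ± 498 to 711 ± 502 and TUBB from 635 ± 430 to 828 ± 541, with log2 ratios of 0.36 to 0.38. None of these differences exceeded the SD over cells. The lower fixed means of TUBB4B in both lines and TUBB3 in HCT-116 also differed from the live means by less than the live SD.

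Of the 9 members, 0 were higher and 2 lower past 1.5-fold in fixed HCT-116 cells, where 13.3% of the 12426 genes with a mean of at least 1 TPM in either group were higher and 17.8% lower. In HepG2-labelled cells 0 were higher and 1 lower, against 16.5% and 19.4% of 13228 genes. The members' shares lower are thus near those of all genes. The median log2 ratio of the members was 0.01 in HCT-116 and 0.04 in HepG2-labelled cells, beside medians of 0.16 and 0.14 over all genes.

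The scale moved these ratios. With ribosomal RNA left out, the median over all genes went to -0.15 in HCT-116 and 0.08 in HepG2-labelled cells, and that over the members to -0.30 and -0.02. On that scale TUBA1B in HCT-116 was at -0.09 and TUBA1C at -0.27 where the deposited TPM gave 0.22 and 0.04. TUBB and TUBG1 in HCT-116 were both at 0.02, where the deposited TPM gave 0.33 and 0.34. TUBB4B was lower in fixed cells on every scale, at -1.26 in HCT-116 and -0.81 in HepG2-labelled cells without ribosomal RNA and at -1.16 and -0.88 after median-ratio rescaling, and TUBB3 in HCT-116 was at -0.96 and -0.84. Live and fixed cells were also matched on read number, by a random draw of equal numbers of cells at each depth. This left 53 HCT-116 and 38 HepG2-labelled cells per treatment. TUBB3 in HCT-116 was then within 1.5-fold at -0.40 and TUBB4B in HepG2-labelled cells at -0.57. TUBB3 in HepG2-labelled cells was then at -0.49, close to the HCT-116 value. With the 38 matched HepG2-labelled cells per treatment, TUBA1B, TUBA1C and TUBB were higher in fixed cells past 1.5-fold, at 0.72, 0.72 and 0.67. Leaving out the identical HepG2 columns or the 6 similar ones gave TUBB4B at -0.75 and -0.71.

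The GC content of the main GENCODE transcript was 50.2% to 52.4% for TUBA1C, TUBB, TUBA1A and TUBA1B, and 57.1% to 62.2% for TUBB6, TUBG1, TUBB2A, TUBB4B and TUBB3. Over all genes with a GC value, the log2 ratio fixed over live went down with GC content, with a Pearson r of -0.53 over 10284 genes in HCT-116 and -0.35 over 10608 genes in HepG2-labelled cells. This is across genes, which are not independent replicates. Among genes of 55% to 60% GC, the class of TUBB4B, TUBB2A, TUBB6 and TUBG1, the median log2 ratio was -0.22 in HCT-116 and -0.09 in HepG2-labelled cells, and 29.5% and 28.98% were lower past 1.5-fold.

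TUBB4B, at 59.3% GC, was below the lower quartile of that class in both lines, which was -0.71 in HCT-116 and -0.67 in HepG2-labelled cells. TUBB2A, also at 59.3%, was not, with log2 ratios of 0.01 and -0.16. TUBB3, at 62.2%, was close to the HCT-116 median of -0.60 for genes of 60% GC or more and above the HepG2 median of -0.33. The part of base composition in the ratios of single members was not tested.

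**Figure D2:**
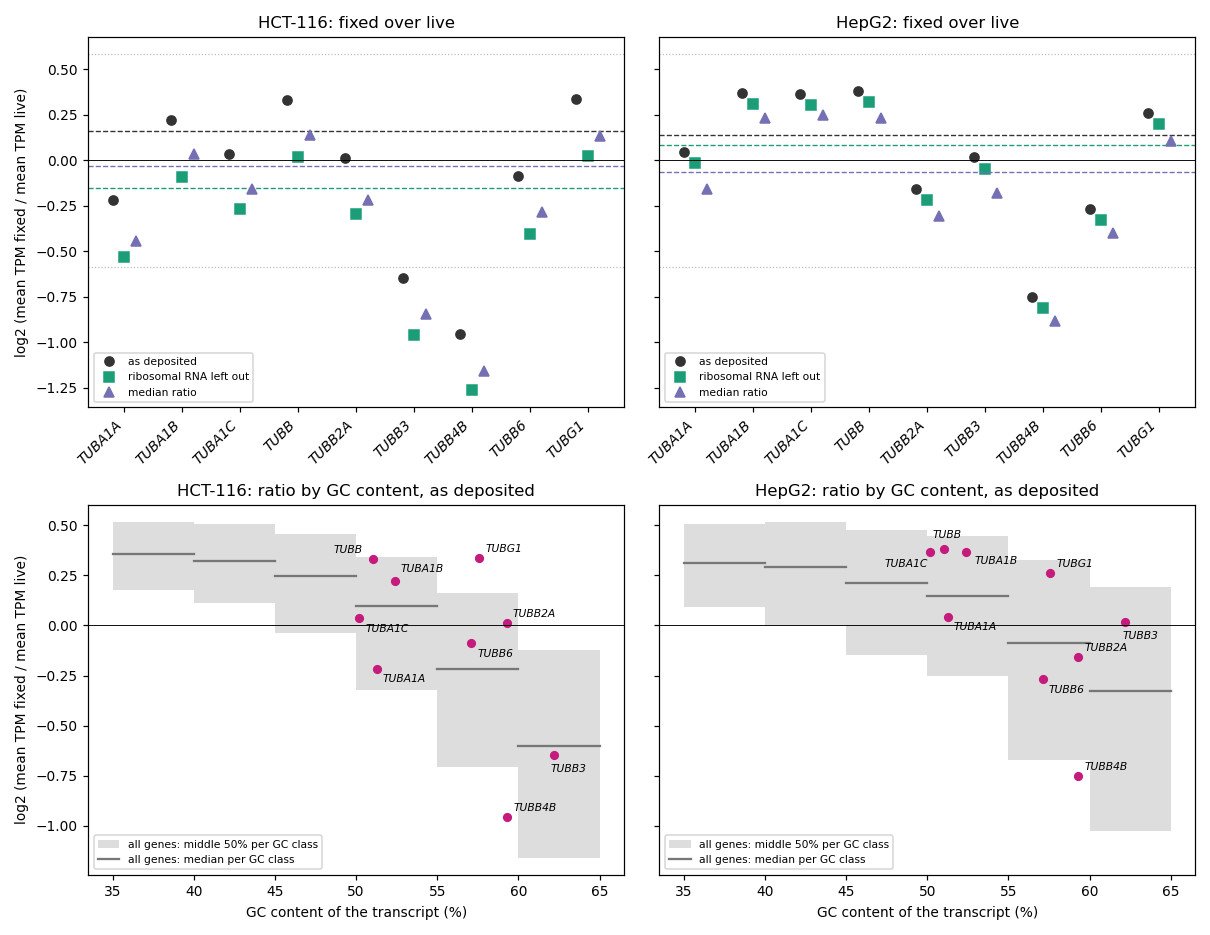
Upper panels show the log2 ratio of mean TPM, fixed over live, for the 9 tubulin genes on 3 scales, with dashed lines at the median of all genes on each scale and dotted lines at 1.5-fold. Lower panels set the ratio as deposited against the GC content (%) of the transcript, with the median and middle 50% of all genes per GC class, all genes below 40% standing in the lowest and all from 60% in the highest class. TUBB4B is at -0.95 in HCT-116 and -0.75 in HepG2-labelled cells, below the middle 50% of its class.

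The share of TUBB in beta-tubulin mRNA differed between live and fixed cells by more than the SD over cells in both lines, and that of TUBA1B in alpha-tubulin by less. Each gene's share was taken per cell as its TPM over the summed TPM of the alpha or beta genes, so it is free of the scale set by ribosomal RNA. TUBB gave 45.4% ± 11.6 of beta-tubulin TPM in live HCT-116 cells and 62.2% ± 12.4 after fixation, and 45.7% ± 12.5 and 60.7% ± 13.6 in HepG2-labelled cells. TUBB4B gave 32% ± 13.6 live and 18.8% ± 10.1 fixed in HCT-116 and 47% ± 12.5 and 31.1% ± 12.9 in HepG2-labelled cells. TUBB3 made up 12.8% ± 9.46 live and 9.23% ± 7.91 fixed of HCT-116 beta-tubulin, and 3.03% ± 4.67 and 3.30% ± 5.06 in HepG2-labelled cells.

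Among the alpha genes, TUBA1B gave 64.6% ± 12.98 live and 66.9% ± 12.6 fixed in HCT-116, and 66.3% ± 16.1 and 67.4% ± 15.4 in HepG2-labelled cells. TUBA1C gave 27.7% ± 11.2 live and 27.2% ± 12.6 fixed in HCT-116, and 23.2% ± 9.39 and 24.7% ± 9.37 in HepG2-labelled cells. TUBA1A gave 4.42% live and 3.07% fixed in HCT-116 but 10.4% and 7.77% in HepG2-labelled cells. Single cells departed far from these means, with TUBA1A reaching 64.9% of alpha-tubulin in a live and 77.3% in a fixed HepG2-labelled cell.

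Summed alpha-tubulin and beta-tubulin followed each other from cell to cell, with Pearson r of log2 sums of 0.92 over 91 live and 0.91 over 92 fixed HCT-116 cells and 0.94 and 0.93 over 68 live and 83 fixed HepG2-labelled cells. Both sums are shares of the same library, and both move with the cell cycle. The ratio of alpha to beta TPM was 1.17 ± 0.396 live and 1.46 ± 0.540 fixed in HCT-116, and 1.81 ± 0.749 and 2.36 ± 0.853 in HepG2-labelled cells. Alpha exceeded beta in 65 of 91, 74 of 92, 64 of 68 and 80 of 83 cells. Together the alpha and beta genes took 0.276% of TPM live and 0.281% fixed in HCT-116 and 0.420% and 0.449% in HepG2-labelled cells.

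**Figure D3:**
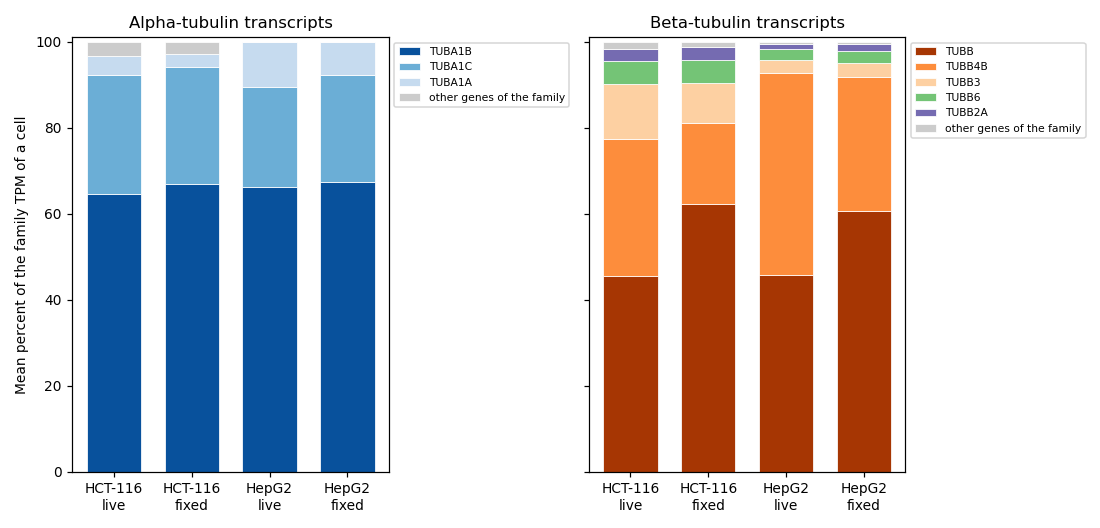
Mean share (%) of the summed alpha-tubulin or beta-tubulin TPM per cell given by each gene, stacked from 0, in the 4 groups. TUBB goes from 45.4% live to 62.2% fixed in HCT-116 and from 45.7% to 60.7% in HepG2-labelled cells, with TUBB4B smaller in the fixed bars, and TUBA1B stays between 64.6% and 67.4%.

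The relation to the cell cycle was described by the Pearson r over cells between log2(TPM + 1) of a gene and the mean z-score of G2/M genes or S genes, with all tubulin genes taken out of those lists. TUBA1B had r with the G2/M score of 0.86 live and 0.81 fixed in HCT-116 and 0.85 and 0.88 in live and fixed HepG2-labelled cells. TUBA1C had 0.83, 0.83, 0.88 and 0.90 in the same order, and TUBB 0.84, 0.79, 0.83 and 0.82. TUBB4B had 0.84, 0.76, 0.88 and 0.80. In live HCT-116 cells only 0.341% of 5278 ranked genes had a higher r than TUBA1B. The 53 G2/M genes that make up the score were left out of the ranked genes.

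TUBG1 followed at 0.77, 0.71, 0.74 and 0.73, and TUBB6 at 0.63, 0.52, 0.60 and 0.30. TUBB2A had 0.39, 0.46, 0.49 and 0.21, and TUBB3 0.16, 0.21, 0.51 and 0.36. TUBA1A was weakest, at 0.28, 0.38, 0.05 and 0.11. The 4 abundant genes and TUBG1 thus had r above 0.7 in all 4 groups, and TUBA1A, TUBB2A and TUBB3, known from neurons, passed 0.5 only for TUBB3 in live HepG2-labelled cells.

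An r of at least 0.5 with the G2/M score was reached by 6 members in live HCT-116 cells, where 8.13% of ranked genes reached it, and by 6 in fixed ones, where 6.48% did. In HepG2-labelled cells 7 members reached it live and 5 fixed, beside 13.6% and 4.87% of ranked genes. The members were chosen with this relation in view. In each cell the gene and the score come from the same library, with its scale and its number of genes detected, which differs between cells. With the number of genes detected taken out as a linear term, r was 0.86 for TUBA1B and 0.82 for TUBB4B in live HCT-116 cells.

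With the S score, TUBA1B had r of 0.81, 0.84, 0.69 and 0.75 in the same group order, TUBB 0.81, 0.79, 0.74 and 0.73 and TUBG1 0.74, 0.79, 0.67 and 0.71. TUBA1C had 0.59, 0.63, 0.45 and 0.58 and TUBB4B 0.60, 0.62, 0.57 and 0.59. With the S score TUBA1B and TUBB thus ran from 0.69 to 0.84, and TUBA1C and TUBB4B from 0.45 to 0.63. The r with the G2/M score was above that with the S score in each group for TUBA1C and TUBB4B, and for TUBA1B and TUBB in each group but fixed HCT-116 cells, by smaller gaps. The 2 scores themselves had r of 0.71, 0.73, 0.54 and 0.61 over cells.

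**Figure D4:**
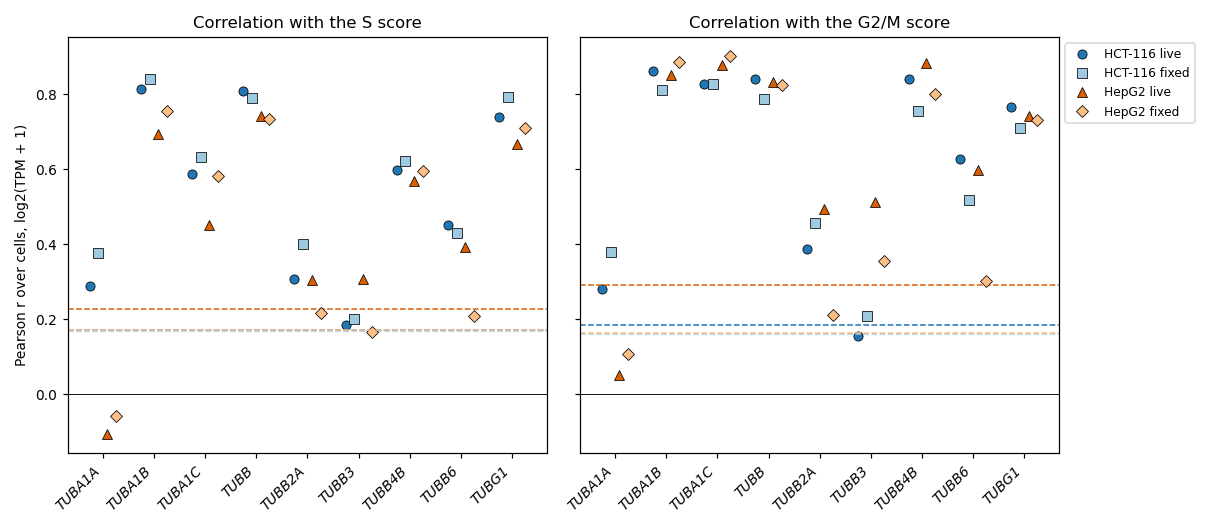
Pearson r over cells between log2(TPM + 1) of each tubulin gene and the S score (left) or the G2/M score (right), 1 symbol per group, over 91 and 92 HCT-116 and 68 and 83 HepG2-labelled cells, with the medians of all genes. TUBA1B and TUBB are high on both sides, at 0.69 to 0.88, while TUBA1C and TUBB4B are at 0.45 to 0.63 against the S score and 0.76 to 0.90 against the G2/M score.

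Cells were also assigned to G1, S or G2/M by the same gene lists. TUBB4B rose from a mean of 143.1 ± 193 TPM in 28 G1 cells through 390 ± 256 in 27 S cells to 769 ± 338 in 36 G2/M cells among live HCT-116 cells, and from 91.3 ± 108.1 through 199 ± 115.7 to 455 ± 253 in 32, 32 and 28 fixed ones. In HepG2-labelled cells it went from 176.1 ± 174.04 (n = 15) through 630 ± 384 (n = 34) to 1302 ± 455 (n = 19) live and from 106.6 ± 124.4 (n = 21) through 471 ± 236 (n = 34) to 613 ± 317 (n = 28) fixed. The G2/M mean of TUBB4B was 5.38, 4.98, 7.40 and 5.75 times its G1 mean.

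From S to G2/M the members differed. The G2/M mean of TUBA1C was 2.15 and 1.93 times its S mean in live and fixed HCT-116 cells and 2.68 and 1.64 times in live and fixed HepG2-labelled cells. For TUBB4B the ratios were 1.97, 2.28, 2.07 and 1.30. TUBA1B had 1.22, 1.13, 1.39 and 1.10, TUBB 1.13, 1.18, 1.08 and 0.952, and TUBG1 1.10, 0.969, 1.13 and 0.776. TUBA1C and TUBB4B thus passed 1.5-fold between S and G2/M in all groups but 1, fixed HepG2-labelled cells for TUBB4B, and TUBA1B, TUBB and TUBG1 in none. The lower genes passed it in some groups. TUBB6 had ratios of 1.51, 1.49, 1.77 and 1.33, TUBB2A 1.54, 1.32, 2.03 and 0.948, and TUBA1A 1.38, 1.10, 1.85 and 1.40. TUBB3 had 1.02 and 0.918 in HCT-116 but 2.58 and 1.57 in HepG2-labelled cells, standing at 106.9, 122.7 and 125.01 TPM in G1, S and G2/M cells of live HCT-116 and at 34.6, 24.5 and 63.3 in those of live HepG2-labelled cells.

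Within each call, the TUBB4B mean was lower in fixed cells. Its log2 ratio fixed over live was -0.65 in G1, -0.97 in S and -0.76 in G2/M cells of HCT-116 and -0.72, -0.42 and -1.09 in HepG2-labelled cells, the S value of the latter being within 1.5-fold. TUBB3 in HCT-116 had -0.60, -0.59 and -0.74. G2/M cells made up 39.6% of live and 30.4% of fixed HCT-116 cells and 27.9% and 33.7% of HepG2-labelled cells.

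**Figure D5:**
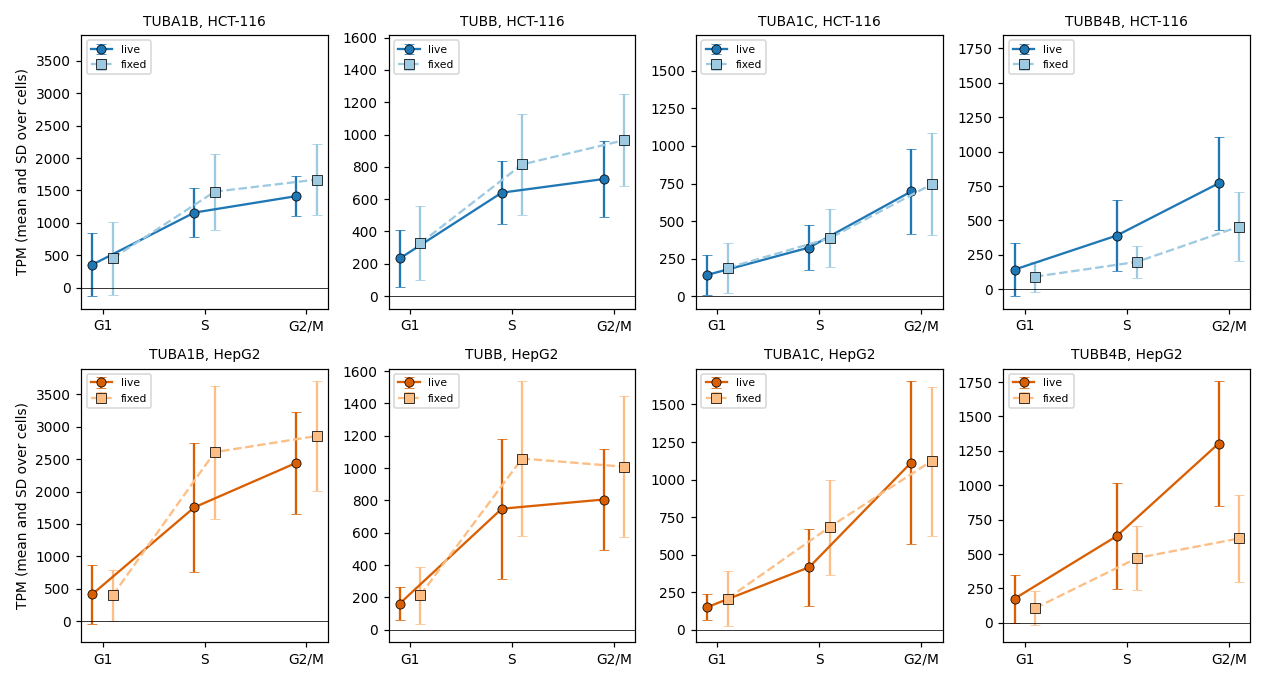
Mean TPM with SD over cells of TUBA1B, TUBB, TUBA1C and TUBB4B in cells called G1, S or G2/M, live and fixed, in each line. TUBA1B and TUBB stay within 1.5-fold between S and G2/M. TUBA1C and TUBB4B pass it, except TUBB4B in fixed HepG2-labelled cells, where G2/M is 1.30 times S. In HCT-116 TUBB4B reaches 769 live and 455 fixed.

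Promoters were read for the 9 members from RefSeq (GRCh38.p14), because cell-cycle genes with a G2/M peak often carry a CHR element (TTTGAA) with CCAAT boxes. These motifs were chosen with the results in view. All 9 members had a promoter entry, and the 250 bases before the start were searched for TTTGAA and CCAAT on both strands. TTTGAA was found in 2 members, TUBA1C and TUBB4B, and in 13.3% of 35116 promoters. It was not found in TUBB6, TUBB2A, TUBB3 or TUBA1A, which passed 1.5-fold from S to G2/M in 1 or 2 groups each. CCAAT was found in 7 members, all but TUBA1B and TUBB2A, and in 32.01% of promoters, and both motifs in 4.69%. TATAAA and GGGCGG were searched in the same way and found in 10.7% and 42.6% of promoters. Among the members TATAAA was found only in TUBB2A, and GGGCGG in all but TUBA1A and TUBB4B. The TTTGAA and CCAAT matches are in capitals in the 2 stretches below, both on the plus strand. The TUBA1C stretch is chr12:49264894-49264936 and the TUBB4B stretch is chr9:137241037-137241198.
TUBA1C: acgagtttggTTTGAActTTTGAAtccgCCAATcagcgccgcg
TUBB4B: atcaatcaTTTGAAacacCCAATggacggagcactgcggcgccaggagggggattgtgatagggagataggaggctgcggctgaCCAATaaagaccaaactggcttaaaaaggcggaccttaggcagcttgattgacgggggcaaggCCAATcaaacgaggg

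TUBA1C held 2 TTTGAA matches, the first at chr12:49264904-49264909, and 1 CCAAT. TUBB4B held 1 TTTGAA, at chr9:137241045-137241050, and 3 CCAAT, the farthest of them 232 bases before the start. In TUBA1C and TUBB4B, every CCAAT match lay nearer the start than every TTTGAA match. Whether the motifs or their order bear on the levels of these genes was not tested. A match of these letters is a description and says nothing about binding.

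The genes whose cell-to-cell pattern was most like that of an abundant member were mainly other members. By the mean Pearson r of log2(TPM + 1) over the 4 groups, among 3930 genes with a mean of at least 10 TPM in each group, TUBA1B was most like TUBB (0.894), then BIRC5 (0.875, survivin, a mitotic protein) and H2AFZ (0.864, the histone variant H2A.Z). TUBB was most like TUBA1B, TUBA1C (0.831) and RRM2 (0.825), a subunit of ribonucleotide reductase. TUBB4B was most like TUBA1C (0.820), TUBA1B (0.798) and TUBB (0.796), and TUBA1C was most like TUBB, TUBA1B and TUBB4B. TUBG1 was most like TUBA1B (0.842), TUBB (0.821) and UBE2T (0.761), a ubiquitin-conjugating enzyme of DNA repair. TUBA1A stood apart from the other members, with mean r of 0.127 to 0.278 with each of them.

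The abundant members varied more between cells than most genes of their level. The coefficient of variation (CV, SD over mean) of TUBA1B was 0.591 live and 0.659 fixed in HCT-116 and 0.669 and 0.618 in HepG2-labelled cells, and between 88.6% and 91.3% of the genes with a mean of at least 100 TPM had a lower one. TUBB4B had 0.822, 0.934, 0.765 and 0.734, TUBA1C 0.763, 0.771, 0.902 and 0.706, and TUBB 0.537, 0.561, 0.677 and 0.654. TUBG1 in HCT-116 had 0.468 and 0.584. The median CV of the 9 members was 0.591, 0.688, 0.876 and 0.734 in the 4 groups, beside 0.550, 0.647, 0.546 and 0.587 over all genes with a mean of at least 10 TPM. The highest CVs were those of TUBB3 and TUBA1A in fixed HepG2-labelled cells, 2.03 and 1.85, where 1 cell each stood far above the rest.

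Between the lines, TUBA1A was higher and TUBB2A, TUBB3 and TUBB6 were lower in HepG2-labelled cells, live and fixed. TUBA1A means were 130.9 ± 114.7 TPM live and 134.97 ± 249 fixed in HepG2-labelled cells against 41.1 ± 38.2 and 35.4 ± 32.6 in HCT-116, log2 ratios of 1.67 and 1.93. TUBB3 means were 37.5 ± 54.6 and 37.99 ± 77.2 against 118.7 and 75.8 in HCT-116, log2 ratios of -1.66 and -1.0. TUBB2A had log2 ratios of -1.04 live and -1.21 fixed, and TUBB6 of -0.95 and -1.13. In both treatments the ranges of the lines overlapped for each of these genes.

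TUBA1B was higher in HepG2-labelled cells by a log2 ratio of 0.71 live and 0.86 fixed and TUBB4B by 0.63 and 0.83. With ribosomal RNA left out both were within 1.5-fold in live cells, at 0.38 and 0.30. After median-ratio rescaling both stayed past it in live cells, at 0.71 and 0.62. TUBA1C was past 1.5-fold in fixed cells, at 0.74. TUBB was at 0.21 in live cells and turned to -0.12 without ribosomal RNA. Of the 9 members, 3 were higher and 3 lower in live HepG2-labelled cells, where 34.8% of 13560 genes were higher and 28.5% lower, and 4 were higher and 3 lower in fixed cells, where 34.4% of 13228 genes were higher and 28.5% lower. With ribosomal RNA left out the live counts of members were 1 and 4, and the share of all genes on that scale is not given. The lines were quantified in separate tables, and line cannot be told apart from culture or table.

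Of 14 further tubulin genes, 13 were listed in the HCT-116 table and 14 in the HepG2 table. TUBD1, which encodes delta-tubulin of centrioles, was the highest of them in HepG2-labelled cells, with means of 86.4 ± 50.4 TPM live and 109.96 ± 65.8 fixed against 11.2 ± 9.82 and 15.2 ± 14.7 in HCT-116. TUBA4A, an alpha isotype, went the other way, with 1.86 ± 2.94 and 2.93 ± 8.73 against 35.8 ± 33.7 and 38.1 ± 51.8 in HCT-116. TUBE1, which encodes epsilon-tubulin, had means of 21.5 live and 26.97 fixed in HCT-116 and 5.94 and 4.62 in HepG2-labelled cells. TUBB4A was at 14.9 ± 10.3 live and 9.28 ± 9.0 fixed in HCT-116 and below 0.3 in HepG2-labelled cells.

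Fixed over live, 0 of the 5 further tubulin genes compared in HCT-116 were higher past 1.5-fold and 1 was lower, TUBB4A at a log2 ratio of -0.68. Over all genes 13.3% were higher and 17.8% lower. Without ribosomal RNA 2 were lower, TUBG2 being at -0.66. In HepG2-labelled cells 1 of 6 was higher, TUBA4A at 0.66, and 1 lower, TUBB8 at -0.81, both with means below 3 TPM, beside 16.5% and 19.4% of all genes. The delta gene TUBD1 stayed within 1.5-fold in both lines, at 0.44 and 0.35.

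The proteins that fold tubulin were described from lists. Over all genes 13.3% were higher and 17.8% lower past 1.5-fold in fixed HCT-116 cells, and 16.5% and 19.4% in fixed HepG2-labelled cells. The tubulin folding cofactors and ARL2 assemble the alpha-beta dimer, and 0 of 6 passed 1.5-fold in either direction in either line. Their medians were 0.47 in HCT-116 and 0.26 in HepG2-labelled cells on the log2 scale, and 0.15 and 0.21 without ribosomal RNA. TBCA, which captures beta-tubulin, had means of 265 live and 391 fixed in HCT-116 and 201 and 277 in HepG2-labelled cells. The CCT chaperonin folds newly made tubulin and actin, and 0 of its 8 subunits passed 1.5-fold in either line. Their medians were 0.44 and 0.41, and 0.12 and 0.36 without ribosomal RNA. Prefoldin hands new chains to CCT, and 2 of its 6 subunits rose past 1.5-fold in HCT-116, PFDN4 at 0.75 and PFDN6 at 0.64, the latter named after its value was seen, while 0 did in HepG2-labelled cells or in HCT-116 without ribosomal RNA.

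Of 9 genes of the gamma-tubulin ring complex, 1 fell past 1.5-fold in each line, TUBGCP6, named after its value was seen, at -1.84 in HCT-116 and -0.76 in HepG2-labelled cells from means below 3 TPM. Over all genes 17.8% were lower in HCT-116 and 19.4% in HepG2-labelled cells. With ribosomal RNA left out 3 genes of the complex were lower in HCT-116. MZT2A, a small subunit of the complex, had means of 47.03 live and 34.99 fixed in HCT-116 and 57.8 and 52.7 in HepG2-labelled cells. The median of the list was -0.02 in HCT-116 and 0.02 in HepG2-labelled cells, and -0.34 and -0.04 without ribosomal RNA.

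Of 14 genes of microtubule binding and dynamics, 1 was higher and 2 lower in fixed HCT-116 cells and 5 higher and 2 lower in fixed HepG2-labelled cells. Over all genes 13.3% were higher and 17.8% lower in HCT-116, and 16.5% and 19.4% in HepG2-labelled cells. Without ribosomal RNA the counts were 0 higher and 3 lower in HCT-116 and 4 higher and 2 lower in HepG2-labelled cells. As deposited, DCTN1 and MAP4 were the 2 lower genes in both lines. DCTN1, the large subunit of dynactin, had means of 25.4 live and 10.7 fixed in HCT-116 and 26.8 and 12.01 in HepG2-labelled cells, log2 ratios of -1.25 and -1.16. MAP4, a microtubule-associated protein, had log2 ratios of -0.70 and -0.59. CKAP5, a microtubule polymerase, was among the higher ones in HepG2-labelled cells at 0.60 and within 1.5-fold without ribosomal RNA, at 0.54. STMN1, which binds free tubulin dimers, was within 1.5-fold in both lines, at 0.45 and 0.49.

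Of 10 tubulin-modifying genes compared, 1 was higher and 2 lower in each line, beside the same shares of all genes, and without ribosomal RNA 0 were higher in HCT-116. The lower ones, named after their values were seen, were TTLL12, of the tubulin tyrosine ligase-like family, at -1.44 in HCT-116 and -1.42 in HepG2-labelled cells, and the tubulin deacetylase HDAC6 at -1.14 and -1.39. Of the 2 genes that act on tubulin mRNA stability, TTC5, which reads the nascent tubulin chain, was higher past 1.5-fold in HCT-116 at 0.63, but at 0.30 without ribosomal RNA, and was at 0.36 in HepG2-labelled cells. SCAPER, its partner, was within 1.5-fold in both.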

How the data were processed

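The authors quantified reads of each cell with kallisto 0.46.0 on GRCh38 transcripts, per the labels and the study's methods. They deposited TPM per gene and CPM per transcript, 1 pair of tables per line, and both units are relative within a cell. Columns were matched to line and treatment by name. Reads per cell came from the step between low CPM values. TUBB2A was listed at 0 in up to 16 of 68 cells of a group, and the part of depth in this was not tested.

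Means, SDs, ratios of mean TPM and Pearson r of log2(TPM + 1) were computed in Python 3.11.15 with pandas 2.3.3 and numpy 2.4.6, and phases with Seurat 5.3.0 in R 4.3.3. Scripts were tested on simulated data. Comparisons used genes with a mean of at least 1 TPM in either group, rankings at least 10 TPM. Shares of all genes past 1.5-fold are given for TPM as deposited only. The members, lists, motifs and descriptions were chosen with earlier results of these data known. Named genes were all members, the 14 further tubulins, the 3 genes most like each of 5 members, and per pathway list the 2 highest and 2 lowest by ratio among genes with at least 10 TPM in each group. Ribosomal RNA genes were left out, or cells rescaled by median ratio, matched on reads or weighted equally by phase, as alternatives. No test was run, since each HCT-116 group is 1 sample and HepG2 columns do not name their experiment. Of 8 intestinal markers, 5 were listed in HCT-116 (summed mean 1781 TPM live, 1815 fixed) and 7 in HepG2 (6624 and 5928). KRT18 gave most of each sum, at 1464 TPM live and 1406 fixed in HCT-116 and 6390 and 5688 in HepG2-labelled cells. Amino acid sequences were not used here.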

Additional observations from a re-analysis of the deposited data

How the results depend on the processing

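Of the alternative values of the summaries, 29 left the tolerance around the reported one and are given here. The tolerance was 0.1 for log2 ratios, r and CV, 5 percentage points for shares and 1.5 times for counts. Some median log2 ratios changed sign, and the called members changed in the counts with cells matched on reads. For single genes 753 of 908 alternative values stayed within the tolerance and the others left it. The cause was not tested in any case.

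The members' median log2 ratio fixed over live in HCT-116 (0.01) was -0.30 without ribosomal RNA, -0.22 by median ratio, 0.22 with cells matched on reads, 0.13 by CPM and -0.20 from means of log2(TPM + 1). In HepG2-labelled cells (0.04) it was -0.16 by median ratio and 0.29 with matched cells. The number past 1.5-fold in HCT-116 (2) was 1 with matched cells and 1 by CPM. In HepG2-labelled cells (1, TUBB4B, lower) it was 3 with matched cells, namely TUBA1B, TUBA1C and TUBB, all higher. TUBB4B was then within 1.5-fold. At 2-fold the number was 0 in both lines. Between live lines the median (0.21) was -0.12 without ribosomal RNA, 0.42 by CPM, -0.0250 from means of log2(TPM + 1) and 0.10 with phases weighted equally, an alternative chosen after seeing the data. Between fixed lines (0.26) the latter pair gave 0.091 and 0.11. At 2-fold the counts between lines (6 live, 7 fixed) were 3 and 3.

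The members' median r with the S score was 0.422, 0.515 and 0.395 by Spearman in live HCT-116, fixed HCT-116 and fixed HepG2-labelled cells (0.587, 0.621 and 0.581), and 0.283 by median ratio in live HepG2-labelled cells (0.451). The median CV in the last group (0.876) was 0.773 by median ratio. By CPM, which is not per length, TUBB gave 57.4% live and 72.2% fixed of HCT-116 beta-tubulin and 59.1% and 72.1% in HepG2-labelled cells. No paired analysis was possible because the columns carry no matching replicate number and no result comes from a test.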

Other observations

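Transcripts of the members gave values that stand outside the gene comparisons. TUBA1B, TUBB4B and TUBG1 were each listed with 1 transcript, and TUBB, listed with 7, had 98.98% of its mean CPM on 1 transcript in live HCT-116 cells and 99.3% after fixation. TUBB6, a broadly expressed beta isotype, was split, its leading transcript holding 40.1% of the gene's CPM in live HCT-116 cells and 42.9% after fixation. That leading transcript was a different one in the 2 treatments of HCT-116. In HepG2-labelled cells the same transcript led in both treatments, with 47.1% live and 43.6% fixed.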
